A study of Arabidopsis thaliana with 34 samples.

Results

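Arabidopsis SUVH1 occupancy was compared with NRPE1 occupancy in plants without linker histone H1, by setting the peaks of 4 ChIP-seq libraries against each other. These are 4 of the 34 samples of the study, chosen by their labels as SUVH1 in *h1* (2 libraries) and NRPE1 in *h1* (2 libraries). Both groups carry the *h1* mutant alleles h1.1-1 and h1.2-1, which are T-DNA insertions in the genes of the main H1 variants, in the Col-0 background. The SUVH1 plants also carry a genomic SUVH1 construct with a 3xFLAG tag, and chromatin was precipitated with anti-FLAG M2. The NRPE1 plants carry no tag, and the endogenous protein was precipitated with an antibody against NRPE1. The comparison is therefore between a tagged transgene and an endogenous protein in different plants. The methods describe the SUVH1 plants in *h1* as a single line made for the study. A FLAG precipitation from plants without the tag was not analysed, and no SUVH1 list from wild type (WT) was analysed. The labels name floral tissue, while the methods name pooled seedlings of 10 to 12 days. The study calls the NRPE1 libraries biological replicates. The sources used here do not say so of the SUVH1 libraries, whose spread may be technical, and the p-values below measure only the spread between these libraries.

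SUVH1 is a SU(VAR)3-9 homolog that binds methylated DNA, including CHH methylation. It acts in a complex with its homolog SUVH3 and the DnaJ-domain proteins DNAJ1 and DNAJ2, which activate transcription. The complex is known for keeping genes active beside transposable elements (TEs) that are methylated by RNA-directed DNA methylation (RdDM). NRPE1 is the largest subunit of RNA polymerase V (Pol V), the plant polymerase whose transcripts act as scaffolds on which AGO4 and the methyltransferase DRM2 assemble. Pol V transcription thus belongs to the step that deposits the methylation, and SUVH1 to its readers. H1 binds the DNA between nucleosomes and is most abundant over heterochromatin.

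The SUVH1 lists held 18181 peaks in replicate 1 and 13938 in replicate 2, covering 9.26 and 7.34 Mb, or 7.77% and 6.16% of the 5 nuclear chromosomes. The NRPE1 lists held 23861 and 24961 peaks, covering 22.7 and 21.2 Mb, or 19.04% and 17.8%. SUVH1 peaks were thus fewer in both libraries, and they were narrower, with a median width of 345 bp in each SUVH1 library against 565 and 503 bp for NRPE1. The median fold enrichment that MACS2 gave over its background was 2.61 and 2.72 for SUVH1, and 3.64 and 4.05 for NRPE1. The lists hold no read numbers, so the depth of the libraries is unknown, and fold enrichment is compared below only within a library. The SUVH1 libraries were less alike than the NRPE1 libraries: of all bases under either list, a fraction of 0.438 lay under both SUVH1 lists and 0.806 under both NRPE1 lists. Results that rest on 1 SUVH1 library are named as such.

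For an account by region, the peaks of all 4 lists were merged where they overlapped or touched. This gave 22090 regions, of which 7100 held a peak of all 4 libraries (joint regions, 32.1%), 6482 held peaks of both NRPE1 libraries and of no SUVH1 library (NRPE1-only, 29.3%) and 312 held peaks of both SUVH1 libraries and of no NRPE1 library (SUVH1-only, 1.41%). The DNA under the strongest summits of these classes is shown first, because the classes differed in where they lay and in their CG content. Each sequence is 150 bases of the plus strand of TAIR10 centred on the summit of a replicate 1 library, for the top pair of regions of each class, with CG dinucleotides in capitals.
Joint, chr2:5021660-5021809: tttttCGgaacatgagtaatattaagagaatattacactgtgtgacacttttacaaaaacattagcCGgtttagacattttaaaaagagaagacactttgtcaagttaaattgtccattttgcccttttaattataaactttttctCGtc
Joint, chr1:20979427-20979576: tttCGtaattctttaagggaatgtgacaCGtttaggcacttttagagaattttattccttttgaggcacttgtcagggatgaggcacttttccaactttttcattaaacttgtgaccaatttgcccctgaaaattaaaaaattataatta
NRPE1-only, chr5:486890-487039: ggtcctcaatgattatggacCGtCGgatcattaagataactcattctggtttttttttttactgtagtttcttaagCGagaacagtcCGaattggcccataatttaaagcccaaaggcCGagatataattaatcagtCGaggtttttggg
NRPE1-only, chr4:9336064-9336213: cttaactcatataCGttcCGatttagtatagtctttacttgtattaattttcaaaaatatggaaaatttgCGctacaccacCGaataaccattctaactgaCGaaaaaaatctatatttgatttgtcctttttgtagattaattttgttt
SUVH1-only, chr4:7760689-7760838: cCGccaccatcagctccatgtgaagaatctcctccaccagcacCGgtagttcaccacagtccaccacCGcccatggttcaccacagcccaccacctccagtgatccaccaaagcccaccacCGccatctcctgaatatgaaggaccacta
SUVH1-only, chr1:8310056-8310205: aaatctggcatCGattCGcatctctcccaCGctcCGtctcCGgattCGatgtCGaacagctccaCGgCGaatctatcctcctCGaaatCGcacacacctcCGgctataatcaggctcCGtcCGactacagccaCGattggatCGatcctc
The joint pair held 3 and 2 CG dinucleotides, the NRPE1-only pair 6 and 5, and the SUVH1-only pair 4 and 16. The GC content of these windows was 29.3% and 32.7% (joint), 38.7% and 27.3% (NRPE1-only) and 58% and 55.3% (SUVH1-only), and the SUVH1-only pair lies in coding exons.

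Most SUVH1 peaks in *h1* lay on NRPE1 peaks, whichever libraries were set against each other. SUVH1 replicate 1 overlapped NRPE1 replicate 1 with 91.2% of its peaks and NRPE1 replicate 2 with 88.5%. SUVH1 replicate 2 did so with 93.8% and 92.1%. The mean was 91.4% ± 2.22 (SD over 4 pairs of lists, which share libraries). These shares exceeded those between the SUVH1 libraries themselves, which overlapped with 55.1% of the peaks of replicate 1 and 73.1% of those of replicate 2. The NRPE1 lists cover more of the chromosomes than the other SUVH1 list does, so the figures cannot be read as a closer match to NRPE1 than to a SUVH1 replicate. The stricter count of SUVH1 summits inside an NRPE1 peak gave 84.2% and 80.3% for replicate 1 and 89.2% and 86.6% for replicate 2.

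The reverse overlap was partial. SUVH1 replicate 1 peaks were found on 51.6% and 51.1% of the peaks of the NRPE1 libraries, and SUVH1 replicate 2 peaks on 41.8% and 41.9%, with a mean of 46.6% ± 5.52 (SD over 4 pairs). Roughly as many NRPE1 peaks lacked a SUVH1 peak as had one. The NRPE1 libraries overlapped each other with 89.0% and 93.7% of their peaks. That gap does not measure how often a SUVH1 peak was missed. The SUVH1 libraries overlapped each other with only 55.1% and 73.1% of their peaks, so a missing SUVH1 peak does not establish that SUVH1 was absent. With every peak cut to 200 bp around its summit, the SUVH1 share on NRPE1 fell to a mean of 46.9%. In these windows SUVH1 replicate 1 overlapped NRPE1 with 43.3% and 44.5%, against 39.5% with the other SUVH1 library, and SUVH1 replicate 2 with 48.7% and 51.2%, against 51.5%. The overlap of SUVH1 with NRPE1 was then within a few points of the overlap between SUVH1 replicates. The NRPE1 share on SUVH1 fell to 30.8% in the same windows.

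**Figure D1:**
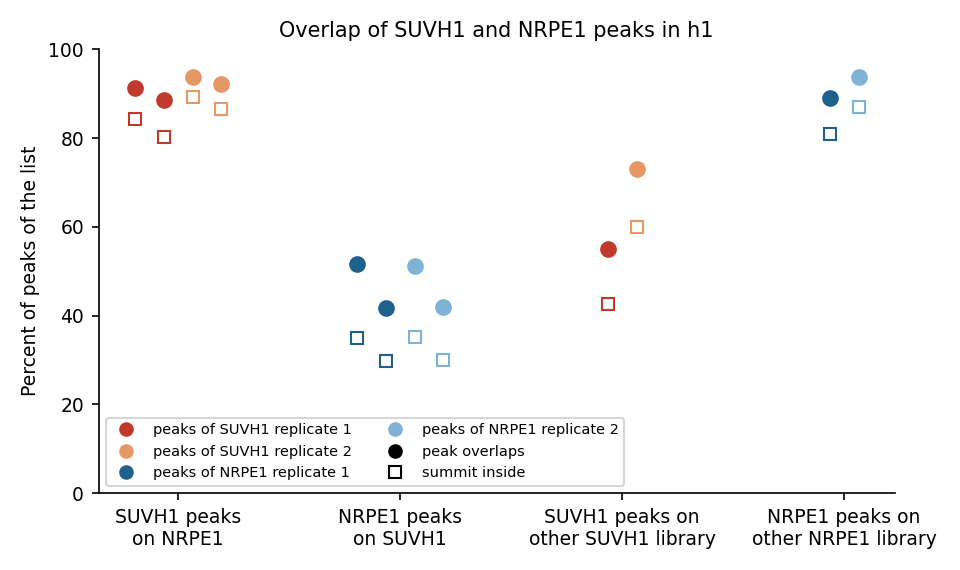
Percent of the peaks of each list (y axis) that overlap a peak of another list, by pair of lists; filled circles count any overlap of at least 1 bp and open squares count summits inside the other peak. SUVH1 peaks lay on NRPE1 peaks in 88.5% to 93.8% of cases, NRPE1 peaks on SUVH1 peaks in 41.8% to 51.6%.

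By region, joint and NRPE1-only sites were similar in number and differed in extent. The 7100 joint regions covered 16.6 Mb with a median width of 1576 bp, and the 6482 NRPE1-only regions covered 3.71 Mb with a median width of 459 bp. The 312 SUVH1-only regions covered 0.273 Mb with a median width of 699.5 bp. The number of SUVH1-only regions depended on the libraries and on how regions were drawn. It was 701 when SUVH1 replicate 1 was left out and 1330 when SUVH1 replicate 2 was left out, since a single library then sufficed. It was 1898 with windows of 200 bp and 786 with lists of equal length. Of the 8196 remaining regions, 4203 held a peak of 1 library alone, 3366 held both NRPE1 libraries with 1 SUVH1 library, 102 held both SUVH1 libraries with 1 NRPE1 library, and 525 held 1 library of each. Regions with NRPE1 were therefore often unresolved by the SUVH1 libraries, whereas regions with both SUVH1 libraries seldom split the NRPE1 libraries.

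The regions that split the SUVH1 libraries differed by library. Of 2176 NRPE1 regions with a peak of SUVH1 replicate 1 only, 86.1% were pericentromeric and 69.2% held H3K9me2 peaks of both *h1* libraries. Of 1190 with a peak of SUVH1 replicate 2 only, 58.0% were pericentromeric and 27.3% held H3K9me2. SUVH1 replicate 1 thus reached more of the pericentromeric NRPE1 regions than replicate 2 did, and results on pericentromeres are given for each library.

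SUVH1 was found at the strongest NRPE1 sites and less often at the weak ones. The 17910 regions formed by merging the NRPE1 lists and holding both NRPE1 libraries were grouped into quartiles by NRPE1 strength, the mean within-list percentile of MACS2's −log10 p. SUVH1 replicate 1 had a peak in 39.6%, 49.0%, 52.6% and 84.8% of the regions from the weakest to the strongest quartile, and SUVH1 replicate 2 in 22.5%, 36.6%, 52.2% and 87.5%. The rise was steepest in the chromosome arms. There, SUVH1 replicate 1 had a peak in 6.54%, 13.5%, 31.2% and 79.4% of the regions, and replicate 2 in 7.199%, 15.2%, 34.6% and 83.5%. In the pericentromeric intervals the same shares were 46.4%, 62.7%, 72.5% and 93.3% for replicate 1 and 25.6%, 44.8%, 68.6% and 93.7% for replicate 2. A weak NRPE1 region of the pericentromere thus carried a SUVH1 peak more often than an equally ranked region of the arms, in both libraries. In the weakest quartile the pericentromeric regions were also wider, with a median of 471 against 283 bp. The median width of the regions rose along the quartiles, from 427 to 1200 bp, and a wider region can catch a peak more easily. Counting a SUVH1 peak over the NRPE1 summit alone, which does not depend on width, gave 3.53% to 73.3% for replicate 1 and 5.10% to 79.0% for replicate 2 from the weakest to the strongest quartile of the arms. The corresponding pericentromeric shares ran from 23.7% to 84.4% and from 11.2% to 86.8%. SUVH1 peaks covered 3.20% and 3.21% of all bases of the arms and 21.3% and 14.9% of those of the pericentromeres. In the weakest quartile the summit shares were near these shares of bases. The contrast between compartments there is therefore not read as a trait of NRPE1 regions.

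**Figure D2:**
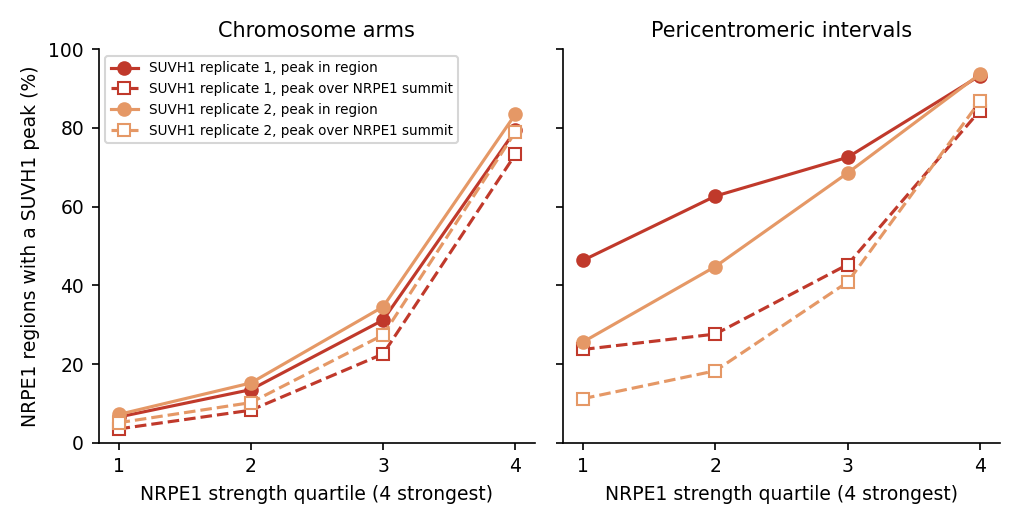
Percent of NRPE1 regions with a SUVH1 peak (y axis) by quartile of NRPE1 strength (x axis, 4 is the strongest), in chromosome arms and pericentromeric intervals, for each SUVH1 library; open squares require the SUVH1 peak to cover an NRPE1 summit. Every line rises, in the arms from 6.54% to 79.4% for replicate 1 and from 7.199% to 83.5% for replicate 2.

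The same relation was seen in the fold enrichment of the region classes. For NRPE1 replicate 1 the median fold of the strongest peak was 7.30 in joint regions and 3.28 in NRPE1-only regions, and in NRPE1 replicate 2 it was 8.78 against 3.67. The mean difference of 4.57 was several times the gap between the libraries in that difference (SD 0.765, n = 2), and it ranged from 3.02 to 5.24 when each library was left out in turn. For SUVH1, joint regions stood at a median fold of 2.99 and 3.07 and SUVH1-only regions at 2.50 and 2.38, a mean difference of 0.590 (SD 0.145, n = 2). By the percentile of −log10 p, however, SUVH1-only regions stood above joint regions in SUVH1 replicate 1, with medians of 78.5 and 74.9, and below them in replicate 2, with 60.1 and 69.0. For NRPE1 the percentile medians were 81.0 and 81.9 in joint and 47.9 and 47.8 in NRPE1-only regions. NRPE1 strength therefore separated joint from single sites by both measures, while for SUVH1 the order depended on the measure and the library. Both measures take the strongest peak of a region. Joint regions were wider than NRPE1-only regions (median 1576 against 459 bp) and could hold more peaks. The part of width in the difference was not tested. Across the 7100 joint regions, the Spearman correlation of fold between a SUVH1 and an NRPE1 library was 0.446, 0.457, 0.553 and 0.570 over the 4 pairs, against 0.708 between the SUVH1 libraries and 0.958 between the NRPE1 libraries. These correlations describe regions that share libraries and that were chosen for holding peaks of all 4 lists, and no test was made of them.

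The converse share was high at every SUVH1 strength. Merging the SUVH1 lists gave 9172 regions with both SUVH1 libraries, and NRPE1 replicates 1 and 2 had a peak in 96.1% and 95.3% of them. From the weakest to the strongest SUVH1 quartile the mean over the NRPE1 libraries was 94.0%, 95.9%, 97.2% and 95.8%. Counting only SUVH1 summits inside an NRPE1 peak, it rose from 86.1% to 94.7% with NRPE1 replicate 1 and from 81.3% to 94.7% with replicate 2. Even weak SUVH1 regions mostly had NRPE1, while weak NRPE1 regions mostly lacked SUVH1 in the arms. The SUVH1 regions without a WT NRPE1 peak went the other way, with a mean of 74.6% of 399 regions in the weakest quartile, 62.3% of 191, 34.1% of 82 and 1.06% of 94 in the strongest. By position, the mean was 82.5% of 515 such regions in the pericentromeres and 8.17% of 251 in the arms. Of all SUVH1 regions, 476 of 2293 in the weakest quartile and 1287 of 2293 in the strongest lay in the arms. The part of position in the fall was not tested. SUVH1 regions with a midpoint outside protein-coding genes held NRPE1 in 98.8% and 97.9% of 8068 cases, and those with a midpoint inside in 76.4% and 75.9% of 1104.

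NRPE1 regions that were also occupied in WT had SUVH1 more often than those seen in *h1* alone. Of the 13292 NRPE1 regions of *h1* that overlapped peaks of both WT NRPE1 libraries, SUVH1 replicates 1 and 2 had a peak in 62.5% and 60.1%. Of the 2369 that overlapped no WT NRPE1 peak they had one in 28.5% and 12.7%. In the arms the shares were 49.9% and 53.6% of 6020 regions against 2.44% and 1.74% of 574 regions. In the pericentromeres they were 73.0% and 65.5% of 7272 against 36.9% and 16.2% of 1795. SUVH1 peaks were thus rare at NRPE1 sites of the arms that had no WT peak, and present at part of those in the pericentromeres, with replicate 1 higher than replicate 2. Over the NRPE1 summit alone, the pericentromeric shares were 48.2% and 43.5% with WT NRPE1 and 16.8% and 5.35% without. SUVH1 peaks covered 21.3% and 14.9% of all pericentromeric bases, so pericentromeric sites without WT NRPE1 did not exceed the share of bases. The regions without WT NRPE1 were also weaker and narrower, with median folds of 2.72 and 2.87 against 5.46 and 6.39, and a median width of 408 against 891 bp. Within the weakest quartile, the SUVH1 shares were 41.1% and 30.8% of 1417 regions with WT NRPE1 against 30.0% and 12.9% of 1732 without. Within the second weakest quartile they were 51.8% and 42.5% of 3196 against 27.6% and 12.8% of 525. The difference was thus present within both quartiles, and it was larger in the second. Strength and width were not equal within a quartile. In the second, regions with WT NRPE1 had median folds of 3.64 and 4.07 against 3.35 and 3.60 without, and median widths of 794.5 against 576 bp. In the weakest quartile the folds were 2.59 and 2.80 against 2.53 and 2.69, and the widths 451 against 372 bp. Seen from SUVH1, regions of the arms with WT NRPE1 held *h1* NRPE1 in 99.9% and 100% of 2956 cases, while those without held it in 8.37% and 7.97% of 251. The pericentromeres differed, with 99.7% and 99.3% of 4487 SUVH1 regions with WT NRPE1 and 85.8% and 79.2% of 515 without.

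SUVH1 and NRPE1 summits lay close together. The clearest measure is that of the 2916 joint regions with exactly 1 peak of each list (41.1% of joint regions), where no choice among summits is needed. There the median distance from a SUVH1 to an NRPE1 summit was 62, 63, 60 and 58 bp over the 4 pairs of libraries. The summits of the SUVH1 libraries were 69 bp apart, and those of the NRPE1 libraries 28 bp. In these regions SUVH1 summits were therefore no farther from NRPE1 summits than from the summits of their own replicate. Any offset between the proteins was not detectable there at the precision of the SUVH1 summits. The regions of this set had a median width of 877 bp, against 1576 bp for all joint regions. The share of regions with summits within 50 bp was 43.0% to 45.4% between the proteins, 40.7% between SUVH1 libraries and 70.4% between NRPE1 libraries. In the arms the medians were 47 to 54 bp between proteins and 60 bp between SUVH1 libraries, and in the pericentromeres 76.5 to 84.5 bp and 86 bp. The order was the same in both compartments, and all distances were longer in the pericentromere.

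Over all peaks the distances were longer in 1 direction. From a SUVH1 summit inside an NRPE1 peak to the nearest NRPE1 summit the median was 222 and 185.5 bp for SUVH1 replicate 1 and 172 and 139 bp for replicate 2, with a mean of 180 ± 34.3 bp (SD over 4 pairs). From an NRPE1 summit inside a SUVH1 peak to the nearest SUVH1 summit it was 71, 74, 63.5 and 60 bp, with a mean of 67.1 bp. Measured in the same way, the summits of the SUVH1 libraries were 75 and 82 bp apart and those of the NRPE1 libraries 48 and 59 bp. Over all peaks, SUVH1 summits were thus farther from NRPE1 summits than from those of their own replicate. NRPE1 peaks were the wider ones, and the part of their width in these differences was not tested. A joint region held on average 1.92 and 1.67 SUVH1 peaks, and 1.48 and 1.69 NRPE1 peaks, by library.

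**Figure D3:**
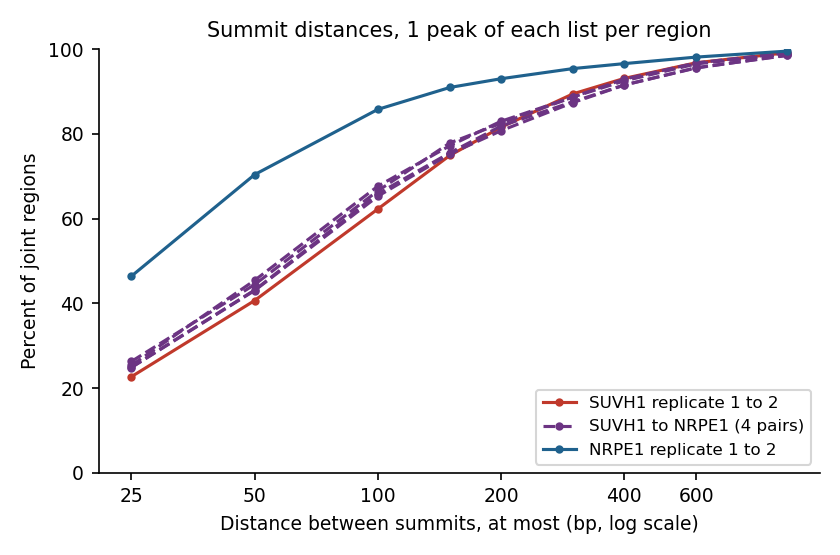
Cumulative percent of the 2916 joint regions with 1 peak of each list (y axis) whose summits lie within a given distance (x axis, bp, log scale). The 4 pairs of SUVH1 with NRPE1 (dashed) run beside the pair of SUVH1 replicates, with 43.0% to 45.4% against 40.7% within 50 bp, and below the pair of NRPE1 replicates at 70.4%.

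At TEs, SUVH1 and NRPE1 shared elements but not their extent. The study's list of TEs by length holds 1562 elements once repeated entries are counted once. All 4 libraries had a peak on 1035 of them (66.3%), both NRPE1 libraries and no SUVH1 library on 328 (21.0%), and none of the 4 on 30. No TE had peaks of both SUVH1 libraries without NRPE1. The share of TEs with peaks of all 4 libraries rose with length, from 56.7% of 806 TEs of 0.5-1 kb over 68.8% of 464 of 1-2 kb and 85.1% of 168 of 2-5 kb to 93.5% of 124 over 5 kb. Long TEs thus nearly always had some SUVH1, but a longer TE can catch a peak more easily. The share of bases under SUVH1 peaks showed no steady rise with length. From the shortest to the longest class it was 35.3%, 39.2%, 35.1% and 39.5% in replicate 1. In replicate 2 it was 40.5%, 41.9%, 30.9% and 30.0%.

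The bases covered told another story for long TEs. In TE bodies, meaning TEs over 5 kb without the outer 1 kb at either end, SUVH1 peaks covered 34.8% and 24.01% and NRPE1 peaks 82.5% and 80.0%. The difference of −51.8 points was larger than the gap between the SUVH1 libraries (10.8 points) or the NRPE1 libraries (2.52 points). An exact permutation test of the libraries gave p = 0.333 (two-sided), which is the smallest p that this test allows with 2 against 2 libraries, so it cannot reach 0.05 here. In the first 1 kb inside the ends the coverage was 53.4% and 47.6% for SUVH1 and 86.8% and 85.1% for NRPE1. SUVH1 coverage of the body was thus 65.3% and 50.5% of that of the ends, while NRPE1 coverage was 95.1% and 94.0%. The fall from the ends to the body was 18.5 and 23.6 points for SUVH1 and 4.26 and 5.14 points for NRPE1, with no overlap between the groups (p = 0.333, exact permutation test). SUVH1 was highest in the first 0.5 kb inside the end, at 61.6% and 58.5%, and reached 29.8% and 17.5% at 2 to 2.5 kb inside. NRPE1 moved from 88.6% and 87.1% to 81.5% and 80.6% over the same span. Just outside the TE, the last 0.5 kb before the end was covered to 36.0% and 35.0% by SUVH1 and to 63.8% and 59.7% by NRPE1.

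**Figure D4:**
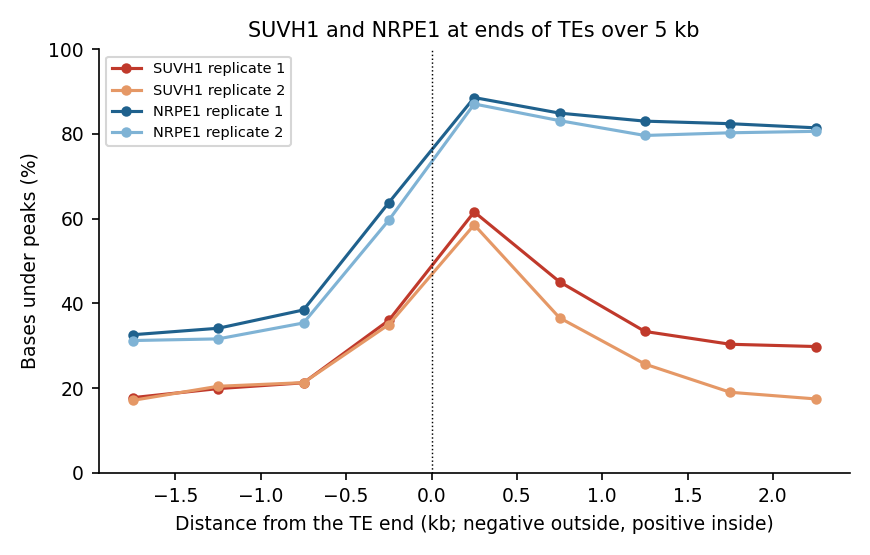
Percent of bases under peaks (y axis) in steps of 0.5 kb from the ends of the 124 TEs over 5 kb (x axis, kb, negative outside and positive inside), for each library. SUVH1 peaks just inside the ends at 61.6% and 58.5% and falls to 29.8% and 17.5% at 2 to 2.5 kb, while NRPE1 stays between 79.6% and 88.6% inside the TE.

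Short TEs of 0.5-1 kb were covered to 35.3% and 40.5% by SUVH1 and to 68.8% and 65.5% by NRPE1, a difference of −29.3 points (p = 0.333, exact permutation test). SUVH1 replicate 2 was above replicate 1 at these short TEs and below it in the bodies of long TEs. The lower coverage of SUVH1 held in both classes of TE, and was larger in points in the long bodies. Since SUVH1 peaks cover fewer bases in all, the coverage of any class is lower. In the arms as a whole SUVH1 covered 3.20% and 3.21% and NRPE1 7.79% and 7.34%, and in the pericentromeres 21.3% and 14.9% against 52.5% and 48.7%. The SUVH1 libraries were nearly equal in the arms and differed by 6.41 points in the pericentromeres.

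The share of peaks in the pericentromeres did not separate the proteins over the lists as deposited. It was 73.4% and 67.8% for SUVH1 and 68.3% and 68.6% for NRPE1, and the pericentromeres hold 25.2% of the bases. The difference of 2.12 points was smaller than the gap of 5.54 points between the SUVH1 libraries (p = 1, exact permutation test), and it turned to −0.646 without SUVH1 replicate 1 and to −0.834 with peaks of −log10 q of at least 3. With lists of equal length, the strongest peaks of each, it was 13.7 points higher for SUVH1 (p = 0.333, the smallest the exact permutation test allows). The comparison thus depended on which peaks of each list were counted. Across 1193 windows of 100 kb, which follow the same gradient along the chromosome, the Spearman correlation of covered bases between SUVH1 and NRPE1 lay between 0.905 and 0.915. Over the 300 pericentromeric windows the Pearson correlation with the NRPE1 libraries was 0.806 and 0.790 for SUVH1 replicate 1 and 0.553 and 0.566 for replicate 2, against 0.871 between the SUVH1 libraries. The broad pattern of the proteins along the chromosomes was alike, and the SUVH1 libraries differed most in the pericentromere.

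Joint, NRPE1-only and SUVH1-only regions differed in where they lay. Pseudogenes, which in this annotation include many TE-derived genes, were overlapped by 39.5% of joint regions, 19.9% of NRPE1-only regions and 4.81% of SUVH1-only regions, against 32.8% of all merged regions. A TE of the list was overlapped by 16.2%, 5.88% and 0.641%, against 8.28% of all. Peaks of both WT NRPE1 libraries were present in 93.3%, 60.7% and 2.24%, against 60.5% of all. By overlap, joint regions were thus the most often at TEs and pseudogenes and nearly all occupied by NRPE1 in WT, and SUVH1-only regions seldom. The difference between joint and NRPE1-only regions in WT NRPE1 was 32.6 points and lay between 20.7 and 45.4 points when each library was left out in turn, with the lowest value without SUVH1 replicate 2. Joint regions are wider, which raises the chance of overlapping any feature, and by midpoint the differences were smaller. The midpoint lay in a pseudogene in 24.5% of joint, 15.4% of NRPE1-only and 3.85% of SUVH1-only regions, against 24.3% of all, so that joint regions did not stand above all regions. It lay in a WT NRPE1 peak of replicates 1 and 2 in 66.7% and 66.1% of joint, 58.1% and 60.7% of NRPE1-only and 3.85% and 2.24% of SUVH1-only regions, against 49.9% of all in each. The low shares of SUVH1-only regions held under both measures. For WT NRPE1 this was nearly fixed by the class rule, which excludes NRPE1 in *h1*. Of 7443 SUVH1 regions with WT NRPE1, 99.8% and 99.6% also held NRPE1 replicates 1 and 2 of *h1*.

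For heterochromatin marks the order of joint and NRPE1-only regions depended on how regions were drawn. The midpoint was pericentromeric in 63.1% of joint, 48.9% of NRPE1-only and 25.6% of SUVH1-only regions, against 62.5% of all. H3K9me2 peaks of both *h1* libraries were present in 44.2%, 26.5% and 13.1%, against 42.0% of all, and H1 peaks of both WT libraries in 51.4%, 28.9% and 14.1%, against 46.0%. The joint minus NRPE1-only difference in the pericentromeric share, 14.2 points, was 3.18 without SUVH1 replicate 1, 3.03 without NRPE1 replicate 1, 3.78 without NRPE1 replicate 2, 5.03 with peaks of −log10 q of at least 3, and −1.69 with 200-bp windows at the summits. The difference in H3K9me2, 17.7 points, was 3.31, 5.11, 5.79 and 9.18 in the same alternatives and −8.96 with 200-bp windows. Other alternatives gave larger differences. In position and H3K9me2 they were 17.9 and 22.9 points without SUVH1 replicate 2, 24.2 and 27.4 with lists of equal length, and 24.04 and 26.2 with merging within 500 bp. No order of joint and NRPE1-only regions in heterochromatin is therefore read from these lists. The shares of joint, NRPE1-only and SUVH1-only regions by chromosome followed the lengths of the chromosomes within 5 points.

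**Figure D5:**
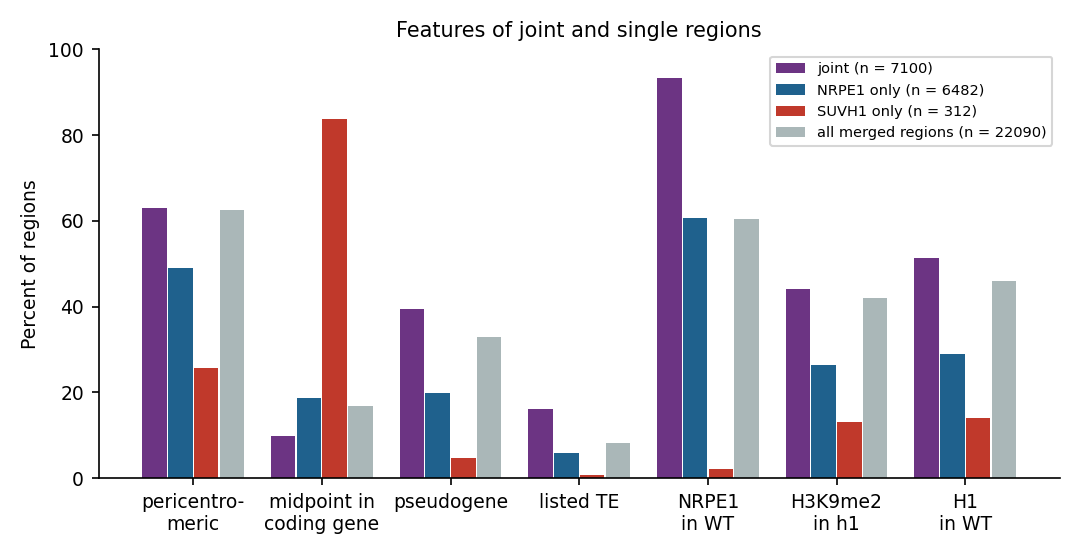
Percent of regions (y axis, bars from 0) of each class that lie in or overlap a feature, for joint, NRPE1-only, SUVH1-only and all merged regions. SUVH1-only regions stand out for midpoints in protein-coding genes (83.7%). WT NRPE1 was present in 2.24% of them and in 93.3% of joint regions, a contrast nearly fixed by the class rule, which uses NRPE1 in *h1*.

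SUVH1-only regions were a small set within genes. The midpoint lay in a protein-coding gene in 261 of 312 (83.7%), against 9.83% of joint regions, 18.6% of NRPE1-only regions and 16.9% of all merged regions, while genes hold 54.1% of the bases. By overlap with a gene the shares were 85.3%, 27.6%, 25.1% and 25.8%, so SUVH1-only regions stood apart under both measures and the order of joint and NRPE1-only regions turned. Of the SUVH1 summits in these regions, 73.9% in replicate 1 and 68.0% in replicate 2 were in coding exons, compared with 4.44% and 4.17% of the SUVH1 summits in joint regions. Coding exons hold 28.3% of the bases. A further 5.73% and 9.50% were in exons outside the coding sequence and 4.46% and 7.12% in introns. Within genes, SUVH1-only summits were fewest in the outer parts: from the 5′ to the 3′ end, successive bins of equal length held 11.8%, 33.7%, 27.6%, 17.6% and 9.32% of 279 pairs of gene and summit in replicate 1, and 10.3%, 33.6%, 23.6%, 20.9% and 11.6% of 301 in replicate 2. SUVH1 summits of joint regions in genes were most frequent in the last bin, with 23.4% and 25.6%, as were NRPE1 summits of NRPE1-only regions, with 31.4% and 31.3%. Region midpoints of the SUVH1-only class gave 7.61%, 24.3%, 37.7%, 24.3% and 6.16%, but a region that spans much of a gene has its midpoint near the middle by construction. The SUVH1-only regions overlapped 294 protein-coding genes. For the SUVH1 lists as a whole, 12.2% and 11.4% of summits were in protein-coding genes, against 11.2% and 10.8% for NRPE1. The shares without the SUVH1-only regions were not computed. Without a FLAG precipitation from untagged plants, SUVH1 binding and other sources of such signal cannot be told apart.

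The summits of NRPE1-only regions lay in front of genes more often than those of joint regions. In the 1 kb before a start site and outside genes and pseudogenes lay 20.9% and 20.7% of NRPE1 summits in NRPE1-only regions and 15.1% and 14.3% of those in joint regions. Over all NRPE1 summits the shares were 14.8% and 14.9%, and such positions take up at most 21.3% of the bases, so NRPE1-only summits did not exceed the share of bases. Counted as any overlap of a region with the 1 kb before a start site, joint regions were higher, at 38.0% against 30.9%, and they are wider. SUVH1 summits in joint regions were there in 12.1% and 14.1%, and in SUVH1-only regions in 0.318% and 0.593%. The gap between NRPE1 libraries within a class was under 1 point, well below the difference between the classes. NRPE1-only summits were also more often in coding exons, at 10.8% and 10.6%, against 3.46% and 3.05% in joint regions.

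The 3 joint regions that ranked highest over the 4 libraries show the positions of summits at single sites. The first, chr2:5014414-5027422, is pericentromeric and overlaps the pseudogenes AT2G12408, AT2G12410 and AT2G12420 and the non-coding RNA gene AT2G05705. Its highest fold was 22.5 and 25.3 for SUVH1 and 33.5 and 40.5 for NRPE1. The summits stood at positions 5021735, 5021762, 5021821 and 5021819, outside any annotated gene. The second, chr1:20978819-20983136, lies over AT1G56090, which encodes a tetratricopeptide repeat-like protein, and AT1G56100, which encodes a protein of the invertase and pectin methylesterase inhibitor family. Its folds were 15.2 and 17.3 for SUVH1 and 17.5 and 22.2 for NRPE1, and its summits at 20979502, 20979493, 20979515 and 20979522 lay close together, just before the start of AT1G56090. The third, chr5:10239732-10242063, overlaps the non-coding RNA gene AT5G28262 and the pseudogene AT5G28263. Its folds were 17.01 and 17.7 for SUVH1 and 19.5 and 25.4 for NRPE1, with SUVH1 summits at 10240596 and 10240589 and NRPE1 summits at 10240497 and 10240506. In all 3 regions, SUVH1 and NRPE1 summits were farther apart than the summits of either pair of replicates, and they were closest in the second. All 3 regions held peaks of both libraries of NRPE1 in WT, of H3K9me2 in *h1* and of H1 in WT.

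The highest SUVH1-only regions lay within genes of the arms and held no peak of NRPE1 in either genotype, of H3K9me2 in *h1* or of H1 in WT. The first, chr4:7759350-7761600, covers the 3′ part of LRX3, a leucine-rich repeat extensin of the cell wall, with folds of 7.44 and 7.81 and summits in a coding exon. The second, chr1:8308860-8310785, covers nearly all of AT1G23390, which encodes a Kelch repeat F-box protein, with folds of 7.66 and 7.60 and summits in a coding exon. The third, chr3:5212797-5214581, covers AT3G15450, which encodes an aluminium-induced protein, and the end of AT3G15460, which encodes a Brix domain protein of ribosomal RNA processing, with folds of 5.69 and 5.83 and summits in an intron. These folds are above the class medians of 2.50 and 2.38.

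The highest NRPE1-only regions lay beside genes. The first, chr5:486493-487314, spans the 3′ end of AT5G02330, a gene for a C1 domain protein, with folds of 9.08 and 11.9. The second, chr4:9335847-9336749, lies between the divergent genes HINT4, which encodes a histidine triad protein, and PRMT7, which encodes an arginine methyltransferase, and reached folds of 11.4 and 14.4. The third, chr1:18988900-18989878, lies between the ends of AT1G51210, a UDP-glycosyltransferase gene, and WIP5, which encodes a zinc finger protein of the WIP family, with folds of 12.4 and 15.8. All 3 held peaks of both WT NRPE1 libraries and no H3K9me2 peak in *h1*, and their folds were above the median of joint regions in the same libraries. Strong NRPE1 alone was thus not accompanied by SUVH1 at every site.

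In the 24-kb window of chromosome 1 that the study used to illustrate SUVH1, SUVH1 and NRPE1 occupied the same loci to different extents. NRPE1 had 2 peaks in each *h1* library, covering 37.6% and 37.3% of the window. The first lay over AT1G29620, a gene of the cytochrome c oxidase VIB family, and the second over the pseudogene AT1G29650. SUVH1 had 3 peaks in replicate 1 and 5 in replicate 2, covering 21.5% and 19.2%. At the pseudogene, NRPE1 replicate 1 ran unbroken from 10356910 to 10363267 with a fold of 13.4, while SUVH1 replicate 1 was split into peaks at 10357285-10358203 and 10361293-10363031 with folds of 3.05 and 3.95. SUVH1 thus marked the ends of the locus and left its middle without a peak, also in replicate 2. At AT1G29620 the strongest summits of SUVH1, at 10349360 and 10349322, lay next to that of NRPE1 at 10349325 in both libraries. AT1G29640, a gene with a domain of unknown function between these loci, had no peak of either protein.

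Among genes of the pathways themselves, peaks were counted from 2 kb before to 2 kb after the gene. Peaks of all 4 lists were found at 21.0% of all 27444 protein-coding genes, peaks of both NRPE1 lists without SUVH1 at 15.0%, and peaks of both SUVH1 lists without NRPE1 at 1.31%. No peak of any list was found at 53.3%. Of the 4 genes of the SUVH1 complex, SUVH1 and DNAJ2 had peaks of all 4 lists, and SUVH3 and DNAJ1 had none. At DNAJ2 (AT2G01710), which encodes a DnaJ-domain activator, the folds were 3.38 and 4.23 for SUVH1 and 6.96 and 7.06 for NRPE1, upstream of the start in each. At SUVH1 itself (AT5G04940), the SUVH1 replicate 1 peak ran from 1454617 to 1457663 across most of the gene with a fold of 11.6, and the strongest replicate 2 peak had a fold of 6.69. NRPE1 was confined to the upstream side there, with folds of 7.51 and 9.30. The transgene carries the same sequence as the gene, so signal from the transgene and from the native locus cannot be told apart.

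Of 10 genes for Pol V and its recruitment, 2 had peaks of all 4 lists, 4 had NRPE1 without SUVH1, none had SUVH1 without NRPE1, and 2 had no peak. Over all protein-coding genes the corresponding shares were 21.0%, 15.0%, 1.31% and 53.3%. The first pair was NRPE1 (AT2G40030) and DMS3. At NRPE1, the SUVH1 folds of 1.84 and 2.40 were below the medians of their own lists (2.61 and 2.72). The NRPE1 folds of 6.65 and 9.57 were above the medians of theirs (3.64 and 4.05). DMS3 is a component of the DDR complex that brings Pol V to chromatin. DRD1 (a chromatin remodeller of the same complex), SUVH2 (a methyl-binding protein that recruits Pol V), KTF1 (a transcription elongation factor-like partner) and AGO4 had NRPE1 alone. RDM1 and the methyltransferase gene DRM2 had no peak. NRPE5 had a peak of 1 NRPE1 library, and SUVH9, a homolog of SUVH2, had both NRPE1 libraries and SUVH1 replicate 2. With 10 genes, these counts are a description.

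Of 4 genes known for methylated promoters or introns, FWA and SDC had peaks of all 4 lists. FWA encodes a homeodomain factor whose promoter repeats are silenced by RdDM, and at its start the folds were 2.30 and 3.60 for SUVH1 and 8.97 and 10.3 for NRPE1. SDC encodes an F-box protein silenced through promoter repeats, and its folds were 2.35 and 2.75 for SUVH1 and 7.87 and 9.52 for NRPE1. ROS1, which encodes a DNA demethylase and depends on methylation of its promoter for its expression, had NRPE1 folds of 8.38 and 8.89, no peak in SUVH1 replicate 1 and a peak of fold 1.85 in replicate 2. IBM1, a histone demethylase gene with a methylated intron, had NRPE1 at folds of 4.91 and 6.87 and no SUVH1 peak. Where SUVH1 had a peak at these promoters, its folds were thus low, close to the median of its peaks or below it, with the exception of FWA in replicate 2.

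The DNA under the summits differed in CG content between SUVH1-only and other regions when whole classes were compared. The windows printed above show this only in part. The SUVH1-only window in LRX3 held fewer CG dinucleotides than either NRPE1-only window. Over all summits of a class, a window of 150 bases held on average 15.2 and 14.6 cytosines in a CG context (both strands) in SUVH1-only regions, and 8.11 and 8.03 under SUVH1 summits of joint regions. Under NRPE1 summits the values were 7.77 and 7.65 in joint and 8.12 and 8.20 in NRPE1-only regions. The chromosomes as a whole held 7.01 per 150 bases and protein-coding genes 7.65, and the genes overlapped by SUVH1-only regions 9.85. Most SUVH1-only summits were in coding exons, which held 10.2 per 150 bases over all genes and 14.2 in the genes overlapped by SUVH1-only regions. The CG content under SUVH1-only summits was thus close to that of the coding exons of the same genes, which were themselves richer in CG than coding exons at large. GC content was 45.7% and 44.7% in SUVH1-only regions, 37.5% and 36.4% under SUVH1 summits of joint regions, and 34.5% under NRPE1 summits of NRPE1-only regions in either library, with 36.0% for the chromosomes and 46.8% for the coding exons of the genes overlapped by SUVH1-only regions. Cytosines in the CHH context, which SUVH1 is known to bind when methylated, numbered 41.9 and 41.1 in SUVH1-only regions, 40.2 and 39.1 under SUVH1 summits of joint regions and 37.0 and 36.9 in NRPE1-only regions, with 39.3 for the chromosomes. CHH content thus varied much less between the classes than CG content. These are counts of sites in the reference, and methylation was not analysed here.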

How the data were processed

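ChIP-seq peak lists of SUVH1-3xFLAG in *h1* and of NRPE1 in *h1* were used, 2 libraries each, with those of NRPE1, H1 and H3K9me2 as features. Reads were mapped by the authors to TAIR10 (Bowtie2, 2.1.0 per the labels), who called peaks for each library with MACS2 (2.1.1). The control and settings of the calls are not given in the sources used here. The deposited fold enrichment is a ratio over the caller's background, and the deposited −log10 values give p and q per peak. The score column was not used, and depth is unknown. Peaks on the 5 nuclear chromosomes were kept.

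Peaks overlapped when they shared at least 1 bp, and regions are peaks merged where they overlap or touch. Groups were compared with exact permutation tests of the libraries, two-sided. Genes came from RefSeq TAIR10.1, whose chromosome lengths contain all peaks, TEs from the study's list of TEs by length, and pericentromeres (in Mb) from its chromosome plot: 12-18, 1-7, 11-17, 1-6 and 9-16 on chromosomes 1 to 5. The regions named are the 3 of each class with the highest mean percentile of −log10 p, the study's SUVH1 window and 3 gene lists. The members, lists and rules were chosen with earlier results of these data known. Scripts (Python 3.11.15, numpy 2.4.6, pandas 2.3.3, scipy 1.17.1) were tested on simulated data. Alternatives were a −log10 q of at least 3, lists of equal length (13938 peaks), an overlap of 0.5 of the shorter interval, 200-bp summit windows, merging within 500 bp, other pericentromeres, other TE bodies, pairs by replicate number and leaving out each library.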

Additional observations from a re-analysis of the deposited data

How the results depend on the processing

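Of 126 alternative values for 16 results, 74 stayed close to the main value or, for tested differences, kept its direction, 48 moved by more than the error of the main value or, for counts, by a large factor and 4 reversed. Peaks of −log10 q of at least 3 gave 36.8% for NRPE1 on SUVH1, a base Jaccard index of 0.260 (main 0.307), a summit distance of 135 bp, 206 SUVH1-only regions, a fold difference between joint and NRPE1-only regions of 5.41, a pericentromeric difference of −0.834 points, and joint minus NRPE1-only differences of 5.03 (pericentromeric), 12.9 (TE; main 10.3), 9.18 (H3K9me2) and 31.1 points (WT NRPE1). Lists of equal length gave 78.7% and 56.8% for the overlaps, a pericentromeric difference of 13.7 points, 786 SUVH1-only and 3547 NRPE1-only regions, and differences of 24.2, 27.4 and 12.4 points in pericentromeric position, H3K9me2 and WT NRPE1. An overlap of 0.5 gave 87.0% for SUVH1 on NRPE1. Windows of 200 bp gave 46.9% and 30.8%, a Jaccard index of 0.134, 4660 joint and 1898 SUVH1-only regions, and differences of −1.69, 8.89, −8.96 and 34.5 points for position, TE, H3K9me2 and WT NRPE1. Merging within 500 bp gave 4661 joint and 3569 NRPE1-only regions and differences of 24.04, 15.3, 26.2 and 25.5 points. Summits of NRPE1 in SUVH1 peaks gave 67.1 bp. Leaving out each library in turn gave 354 to 1330 SUVH1-only and 7788 to 10321 NRPE1-only regions (10321 without NRPE1 replicate 1), a pericentromeric difference of −0.646 to 4.89 points, a fold difference of 3.02 to 5.24, and feature differences of 3.03 to 17.9 (position), 6.97 to 10.8 (TE), 3.31 to 22.9 (H3K9me2) and 20.7 to 45.4 points (WT NRPE1). The coverage of long TE bodies (−57.2 to −46.4) and short TEs (−31.9 to −26.7) kept its direction in every alternative run. The cause of the other changes was not tested; without a library, 1 peak suffices for a class.

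The replicate numbers were shared only in name, and the deviations of fold of same-numbered libraries correlated at 0.124 over the joint regions. With the replicate block, that is pairs of like number, the overlaps were 91.7% and 46.7%, the Jaccard index 0.308 and the summit distance 180.5 bp, and the differences were 2.12 points (exact permutation p = 1), −51.8 and −29.3 points (p = 0.5 each by exact permutation, the smallest that 2 pairs allow). The lists give no read depth, which limits any statement that a protein was absent from a region.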
